A study of Mus musculus with 3 samples.

Results

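Visium spots of notexin-injured mouse tibialis anterior at 5 days post-injury (dpi) were compared between regions with little and regions with much myonuclear RNA. The spots were selected on measured values, namely the theta of type IIb and type IIx myonuclei, where theta is the estimated fraction of a spot's transcripts that came from a cell type. The 155 spots in which both myonuclear values together stayed under 0.5 are called regenerating, and the 439 spots in which they reached at least 0.8 are called myofiber-rich. The section held 933 spots, of which 339 lay between both limits, and the series held 2758 spots in 3 sections.

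The study placed sections of injured tibialis anterior on slides with barcoded spots that capture polyadenylated RNA, and estimated the cell types in each spot with BayesPrism from a compendium of mouse muscle data. Each of 2, 5 and 7 dpi had 1 section, from adult C57BL6/J mice aged 5 months that the labels give as female. All 3 muscles had been injected with notexin, a snake venom toxin that destroys myofibers, and no uninjured section was among the samples used here. A spot covers a small region and can hold several cells or part of one, so theta describes RNA and not cells, and fewer cells of a type cannot be told apart from less RNA per cell.

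After notexin, dead myofibers are cleared by infiltrating monocytes and macrophages while muscle stem cells (MuSCs) become activated, commit to myoblasts and fuse into new fibers. Fibro-adipogenic progenitors (FAPs) expand beside them and lay down matrix. Mature fibers hold many mitochondria, and their myonuclei express the genes of the contractile and metabolic apparatus of a fiber type.

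The 155 regenerating spots were 16.6% of the section (95% interval 14.3 to 19.2), and the 439 myofiber-rich spots were 47.1% (43.8 to 50.3). These and the later intervals of shares are exact Clopper-Pearson intervals that cover the counting of spots only. Summed myonuclear theta ran from 0.0848 to 0.499 in regenerating spots, with a median of 0.379, and from 0.801 to 0.978 in myofiber-rich spots, with a median of 0.896. No gap separated the classes. The 5 spots just under 0.5 had 8.68% to 13.3% mitochondrial UMIs and the 5 spots just above it 9.63% to 13.8%, while the 5 spots just under 0.8 had 25.3% to 36.1% and the 5 from 0.8 upward 15.8% to 30.3%.

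**Figure D1:**
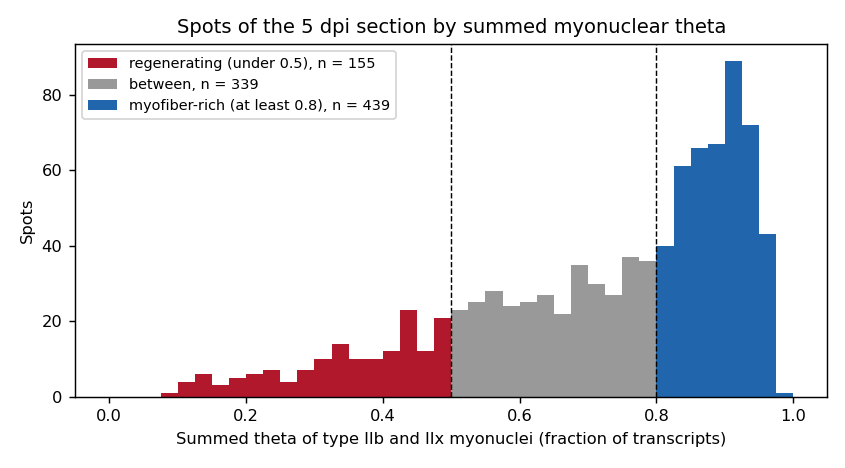
Number of spots of the 5 dpi section in each interval of summed theta of type IIb and type IIx myonuclei, in fractions of transcripts, with dashed lines at the limits of 0.5 and 0.8. The 155 regenerating spots (red) spread down to 0.0848, the 439 myofiber-rich spots (blue) form the main peak, and the 339 spots between (grey) fill the range without a break.

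Apart from myonuclei, the regenerating spots held chiefly RNA of fusing myocytes, pro-remodeling FAPs and Cx3cr1-hi M2 macrophages. Type IIb myonuclei still had a mean theta of 0.336 in these spots, above the 0.287 of fusing myocytes. Transcripts of the regenerating spots were poor in mitochondrial and rich in ribosomal protein genes. Outside the myonuclei, fusing myocytes had a mean share of 0.455 in regenerating and 0.191 in myofiber-rich spots. Cx3cr1-hi M2 macrophages had 0.0877 and 0.0157. In the other direction, the 4 endothelial types together had 0.0300 in regenerating and 0.173 in myofiber-rich spots.

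These shares are rescaled theta, in which the 25 types other than myonuclei sum to 1 in each spot. Rescaling was needed because raw theta of the 25 types together is bounded by the limits, and differently in each class. On the raw scale 24 of the 25 types were higher in regenerating spots and 1 was lower, whereas after rescaling 6 were higher and 19 lower. All theta values come from the deconvolution that also chose the spots. With 1 section and spots that are neighbours in it, they are given as a description with no test.

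The rescaled values of myofiber-rich spots rest largely on very small estimates. Theta was never 0, and its lowest value in a spot had a median of 0.00105 in regenerating and 0.000746 in myofiber-rich spots. Types with a raw theta under 0.01 made up a median of 10.3% of the non-myonuclear theta of a regenerating spot (quartiles 8.43 and 13.0) and 61.6% of that of a myofiber-rich spot (44.0 and 83). A regenerating spot held a median of 7 of the 25 types at a theta of at least 0.01, with a range of 2 to 16, and a myofiber-rich spot held 2, with a range of 0 to 6. In 84 of the 439 myofiber-rich spots no type other than myonuclei reached 0.01. The main ratios below are therefore set beside the share of spots in which the type had a raw theta of at least 0.01, here called presence. Presence is cut on raw theta, whose non-myonuclear total is bounded by the class limits (medians of 0.621 in regenerating and 0.104 in myofiber-rich spots). The limits thus favour higher presence in regenerating spots, and presence is no independent check of the ratios.

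Fusing myocytes, the cells that join into new myofibers, had the highest mean of the 25 non-myonuclear types in regenerating spots. Their rescaled theta had quartiles of 0.369, 0.486 and 0.571 in regenerating spots and 0.0744, 0.141 and 0.282 in myofiber-rich spots, a ratio of means of 2.38. The upper quartile of the myofiber-rich spots lay under the lower quartile of the regenerating spots, although the highest values, 0.696 and 0.656, were close. Raw theta averaged 0.287 and 0.0244, a ratio of 11.8. Fusing myocytes were present in all 155 regenerating spots (97.6% to 100%) and in 263 of the 439 myofiber-rich spots (59.9%, 55.2 to 64.5). When theta under 0.01 was set to 0 and the 84 spots with nothing left were dropped, the rescaled ratio was 1.15. The size of the difference thus depended on this setting, and the parts of zeroing and of dropping spots were not tested.

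The means of the earlier myogenic stages were lower in regenerating spots after rescaling. The presence of each stage was higher there, an order that the class limits favour. Quiescent MuSCs, the resting stem cells under the fiber's basal lamina, averaged 0.00678 in regenerating and 0.0395 in myofiber-rich spots, a ratio of 0.172. Committed myoblasts, the stage before fusion, averaged 0.0162 and 0.0615, and activated MuSCs 0.0170 and 0.0405. The 3 stages together made 0.040 and 0.141 of the non-myonuclear transcripts, 3.54 times as much in myofiber-rich spots.

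Raw values of these stages differed far less or the other way. Quiescent MuSCs had a raw mean of 0.00431 in regenerating and 0.00402 in myofiber-rich spots and were present in 7.74% (4.06 to 13.1) and 4.56% (2.80 to 6.95). Committed myoblasts were present in 31.6% of regenerating spots (24.4 to 39.6) and 15.3% of myofiber-rich spots (12.0 to 19), and activated MuSCs in 38.1% (30.4 to 46.2) and 3.87% (2.27 to 6.13). For activated MuSCs the ratio turned from 0.419 to 1.47 when theta under 0.01 was set to 0, so no direction is read for this type, which is part of the sum of 3 stages above. All 4 myogenic types together made 0.495 and 0.332 of the non-myonuclear transcripts, and fusing myocytes carried most of this sum in regenerating spots.

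Cx3cr1-hi M2 macrophages, a subset named for a chemokine receptor and of the kind linked to repair, had the highest ratio of rescaled means of the 25 types over all spots, though not within 5000 to 10000 UMIs. Rescaled theta had quartiles of 0.0363, 0.0732 and 0.120 in regenerating spots, with a maximum of 0.308, and 0.0104, 0.0143 and 0.0201 in myofiber-rich spots, a ratio of means of 5.59. They were present in 139 of 155 regenerating spots (89.7%, 83.8 to 94.0) and in 1 of 439 myofiber-rich spots (0.228%, 0.00577 to 1.26). That 1 spot had a theta of 0.0112 and a summed myonuclear theta of 0.813, and the next highest myofiber-rich spot had 0.00587. In spots with 5000 to 10000 UMIs (29 regenerating and 112 myofiber-rich) the ratio was 2.39, below the 2.61 of fusing myocytes. The regenerating spots of that window also had a higher median summed theta, 0.440 against 0.379, and the part of depth in the lower ratio was not tested.

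Of the other monocytes and macrophages, Cxcl10+ monocytes averaged 0.0317 in regenerating and 0.0164 in myofiber-rich spots, a ratio of 1.93, and were present in 92 of 155 and in 1 of 439 spots. Patrolling monocytes (ratio 1.10) and Cx3cr1-lo M2 macrophages (1.08) had close rescaled means in both classes, but their order turned with the median over spots for patrolling monocytes (ratio 0.612) and within 5000 to 10000 UMIs for Cx3cr1-lo M2 macrophages (0.935). They were present in 37.4% and 49.7% of regenerating spots against 0.228% and 0.456% of myofiber-rich spots. Inflammatory monocytes (0.706) and M1 macrophages (0.731), the early phagocytic cells, were lower after rescaling, but their ratios became 9.26 and 25.1 when theta under 0.01 was set to 0. Each was present in 1 myofiber-rich spot, so their order after rescaling came from values under 0.01.

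The 3 macrophage types together made 0.121 of non-myonuclear transcripts in regenerating and 0.0520 in myofiber-rich spots, a ratio of 2.33, or 1.41 within 5000 to 10000 UMIs. With the 3 monocyte types and dendritic cells added, the sums were 0.201 and 0.121. Dendritic cells, which present antigen, had a median of 0.00522 in regenerating spots against 0.0137 in myofiber-rich spots, and a maximum of 0.425 in 1 regenerating spot.

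FAPs took nearly the same part of the non-myonuclear transcripts in both classes, with a sum of 0.175 in regenerating and 0.199 in myofiber-rich spots over 3 types, but the types differed. Pro-remodeling FAPs, the matrix-producing form, had quartiles of 0.0574, 0.125 and 0.173 in regenerating and 0.0362, 0.0572 and 0.106 in myofiber-rich spots, a ratio of means of 1.41. They were present in 143 regenerating spots (92.3%, 86.9 to 95.9) and 133 myofiber-rich spots (30.3%, 26.0 to 34.8). The quartile ranges overlapped, and with small theta set to 0 the ratio was 1.13.

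Adipogenic FAPs, the form that can give rise to fat, averaged 0.0401 in regenerating and 0.0604 in myofiber-rich spots, and stem FAPs, the undifferentiated form, 0.0121 and 0.0518. Adipogenic FAPs were present in 52.9% of regenerating spots and 15.7% of myofiber-rich spots. Tenocytes, the cells of tendon and its junction with muscle, averaged 0.0325 and 0.0390 and were present in 38.1% and 7.06%.

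Over all spots, the endothelial types together had about the same raw theta in both classes, though not within 5000 to 10000 UMIs. Raw theta leaves mitochondrial and ribosomal protein genes out, so it is no part of all UMIs. The raw mean of the 4 endothelial types together was 0.0193 in regenerating and 0.0167 in myofiber-rich spots. Within 5000 to 10000 UMIs it was 0.0184 and 0.0128, a ratio of 1.44. The non-myonuclear theta as a whole had medians of 0.621 and 0.104, and endothelial types made 5.76 times as much of it in myofiber-rich spots. Capillary endothelial cells, which line the smallest vessels around fibers, had rescaled quartiles of 0.00333, 0.00556 and 0.00820 in regenerating spots and 0.0215, 0.0379 and 0.0766 in myofiber-rich spots, a ratio of 0.134. Their raw mean was 0.00477 in regenerating and 0.00529 in myofiber-rich spots, the only raw mean of the 25 that was lower in regenerating spots, and their presence was 6.45% (3.14 to 11.5) and 12.5% (9.58 to 16).

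The other endothelial types were also lower in regenerating spots after rescaling, with ratios of 0.161 for stem endothelial cells, 0.173 for artery and 0.276 for vein, but not on the raw scale, where the ratios were 1.03, 1.20 and 1.77. Presence was 7.74% and 8.20% for stem endothelial cells, 2.58% and 3.42% for artery, and for vein 10.3% in regenerating against 2.05% in myofiber-rich spots. Smooth muscle cells, the contractile cells of vessel walls, had medians of 0.00651 in regenerating and 0.0336 in myofiber-rich spots but means of 0.0223 and 0.0487. Their ratio of means, 0.459, turned to 1.42 within 5000 to 10000 UMIs, and they were present in 16.8% and 11.4% of spots. In 4 regenerating spots smooth muscle cells led all other types, at 0.289 to 0.578, and without the 13 regenerating spots that fusing myocytes did not lead the ratio was 0.222.

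The remaining types were minor in both classes. Neutrophils, the first cells to enter an injury, averaged 0.00482 in regenerating and 0.0139 in myofiber-rich spots and were present in 1 and 0 spots (0 of 439 allows a share of up to 0.837%). T, B and NK cells, the lymphocytes, together made 0.0274 in regenerating and 0.0412 in myofiber-rich spots. B and NK cells were present in 0 myofiber-rich spots and T cells in 1, against 16, 19 and 27 of the 155 regenerating spots. Neural cells had a median of 0.00187 in regenerating and 0.0175 in myofiber-rich spots. Their regenerating mean of 0.0128 rested on 2 spots at 0.689 and 0.715, which had only 1584 and 1520 UMIs.

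**Figure D2:**
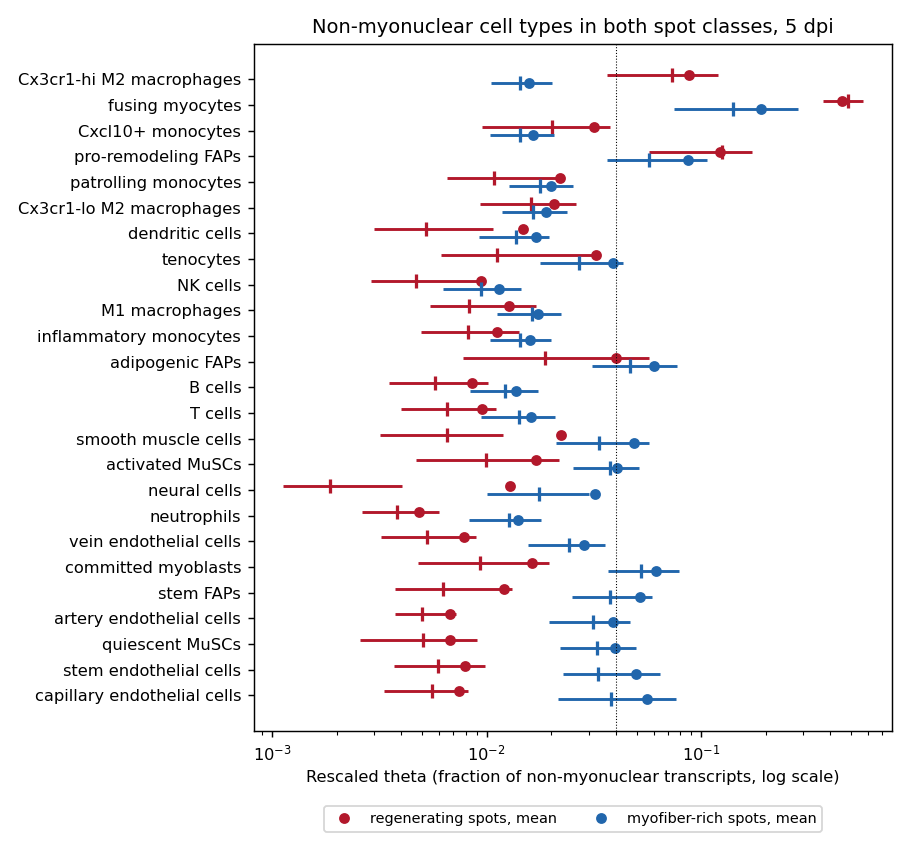
Rescaled theta of the 25 types other than myonuclei, as a fraction of non-myonuclear transcripts on a log axis, for 155 regenerating (red) and 439 myofiber-rich spots (blue) at 5 dpi. Dots are means, vertical ticks medians, horizontal lines run from lower to upper quartile, and the dotted line marks the even share of 0.04. Types are ordered by the ratio of means, from 5.59 for Cx3cr1-hi M2 macrophages at the top to 0.134 for capillary endothelial cells at the bottom.

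The split of myonuclear RNA between fast fiber types, which the limits did not use, had no stable order. Type IIx myonuclei made a mean of 0.0472 of the summed myonuclear theta in regenerating spots and 0.176 in myofiber-rich spots. Within 5000 to 10000 UMIs the means were 0.0754 and 0.0726. The IIx part moved with UMIs in opposite ways, at a Spearman rho of -0.54 over the 155 regenerating and 0.49 over the 439 myofiber-rich spots.

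Mitochondrial and ribosomal protein genes were left out of the deconvolution reference, so their percentages were not inputs to the choice of spots, although they were counted in the same spots. Mitochondrial genes gave a median of 8.54% of UMIs in regenerating spots (quartiles 6.73 and 10.1) and 32.4% in myofiber-rich spots (28.1 and 36.2), 23.8 percentage points lower in regenerating spots. The ranges, 3.92% to 13.4% and 13.0% to 47.6%, overlapped by 2 spots of each class. In median UMIs per spot this was 1126 against 3537 mitochondrial UMIs.

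Ribosomal protein genes, which encode the translation machinery, gave a median of 13.3% in regenerating (11.8 and 15.3) and 5.01% in myofiber-rich spots (4.48 and 5.55), 8.25 points higher in regenerating spots. Of the 155 regenerating spots, 2 lay under the highest myofiber-rich value of 7.85%, and these were the 2 neural-led spots of lowest depth. Since mitochondrial UMIs enter the total, the ribosomal protein percentage was also taken of non-mitochondrial UMIs. It was then 14.5% and 7.40%, so the order held with the mitochondrial UMIs set aside.

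Depth differed between the classes, but these differences were also present at like depth. Regenerating spots had a median of 14429 UMIs (quartiles 8991 and 20375) and myofiber-rich spots 11693 (7630 and 15253.5), ratio 1.23, and together they held 2365795 and 5053230 UMIs. Within 5000 to 10000 UMIs the medians were 7706 and 7801.5. There the mitochondrial median was 10.0% (range 6.19 to 12.8) in 29 regenerating and 30.4% (13.3 to 42.7) in 112 myofiber-rich spots, with no overlap. The ribosomal protein median was 12.4% (9.09 to 15.4) and 5.09% (3.57 to 7.76), again with no overlap.

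Regenerating spots also held more genes. The median number of genes was 3949 (2897 to 4743.5 between quartiles) in regenerating and 2137 (1660 to 2529) in myofiber-rich spots, ratio 1.85. Within 5000 to 10000 UMIs it was 2629 and 1712.5. In that window the median of non-mitochondrial UMIs was still higher in regenerating spots, 6859 against 5268.5. Gene number at like non-mitochondrial depth was not compared. Across 4 depth classes (under 5000, 5000 to 10000, 10000 to 20000 and at least 20000 UMIs), regenerating spots had medians of 1457.5, 2629, 3990.5 and 5160 genes against 917, 1712.5, 2385 and 3161. The order was the same in each, with 24 myofiber-rich spots in the deepest class and 18 regenerating spots in the shallowest.

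Hemoglobin genes, a mark of red blood cells, had medians of 0.0233% in regenerating and 0.0333% in myofiber-rich spots. Their order turned within 5000 to 10000 UMIs, at 0.0339% and 0.0275%, so none is read.

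**Figure D3:**
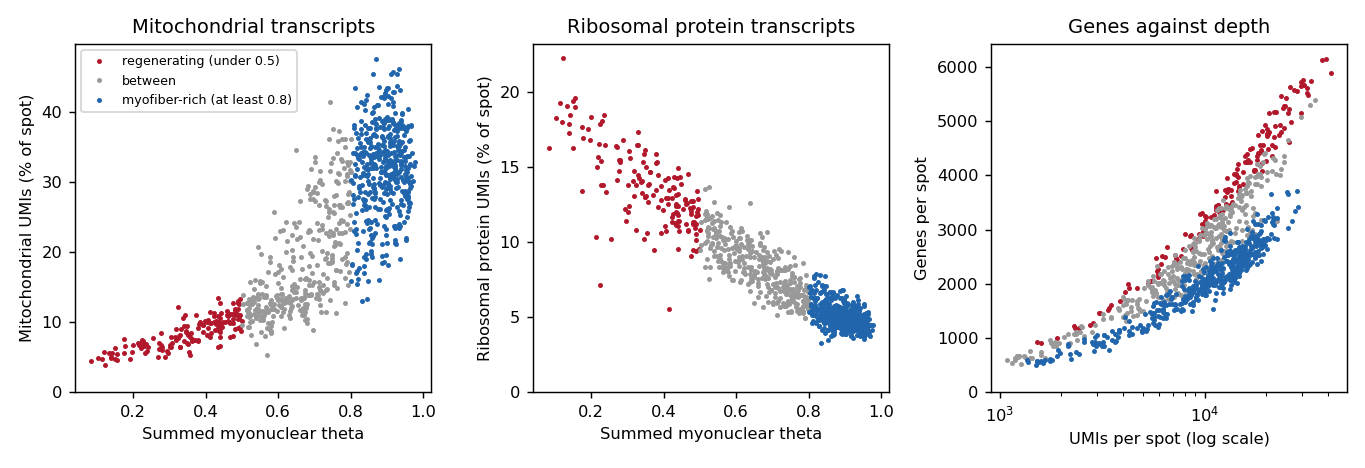
Each point is a spot of the 5 dpi section (red regenerating, grey between, blue myofiber-rich). Mitochondrial UMIs (left) and ribosomal protein UMIs (middle), both in % of the spot, are plotted against summed myonuclear theta, and genes per spot against UMIs on a log axis (right); mitochondrial medians are 8.54% and 32.4%, ribosomal protein medians 13.3% and 5.01%, and red points lie mostly above blue points of equal UMIs.

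The spots between the limits joined the classes without a step in ribosomal protein transcripts and with a steep part in mitochondrial transcripts. Over 9 bins of summed theta, the first up to 0.2 and the others 0.1 wide, the ribosomal protein median went from 18.0% in the first through 15.4%, 13.8%, 12.0%, 10.1%, 8.58%, 6.61% and 5.32% to 4.69% in the last. The mitochondrial median was 5.40%, 6.60%, 8.04%, 10.1%, 11.9% and 14.6% in the first 6 bins, then 24.1% from 0.7 to 0.8, 31.9% from 0.8 to 0.9 and 32.6% above. The largest gap between neighbouring bins thus lay between 0.6 to 0.7 and 0.7 to 0.8. Over all 933 spots, Spearman's rho with summed theta was 0.83 for mitochondrial and -0.91 for ribosomal protein percentages, and for total UMIs -0.05. Within the regenerating spots it was 0.81 and -0.68, and within the myofiber-rich spots 0.13 and -0.44. These correlations are over neighbouring spots of 1 library and are given with no test.

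The non-myonuclear types did not all follow the same course over these bins. The rescaled mean of Cx3cr1-hi M2 macrophages was 0.189 in the lowest bin and lower at each of the 8 steps, down to 0.0154 in the highest. Fusing myocytes had 0.358 in the lowest bin, were highest at 0.507 from 0.4 to 0.5, and had 0.117 above 0.9. Pro-remodeling FAPs had 0.0802 in the lowest bin, a maximum of 0.142 from 0.5 to 0.6, and 0.0673 above 0.9. The lowest bin held 19 spots, so its values rest on few of them, and the bin from 0.2 to 0.3, with 24 spots, had 0.101, 0.403 and 0.0883 for the 3 types. Within the regenerating range, then, spots with the least myonuclear RNA had the highest rescaled share of Cx3cr1-hi M2 macrophages. The highest rescaled share of fusing myocytes lay next to the limit of 0.5. Their raw means did not peak there, at 0.304, 0.301, 0.290 and 0.276 from the lowest bin up to that limit. M1 and Cx3cr1-lo M2 macrophages had their lowest rescaled means, 0.00666 and 0.0178, in the lowest bin. That bin was also the deepest, with a median of 20657 UMIs.

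The pooled groups showed the same contrast. Monocytes, macrophages and dendritic cells together went from 0.338 in the lowest bin to 0.153 from 0.4 to 0.5 and 0.125 in the highest. Endothelial types stayed between 0.0280 and 0.0311 in the 4 regenerating bins and were at 0.131 and 0.220 in the 2 myofiber-rich bins. MuSCs and committed myoblasts together went from 0.0369 to 0.158. FAPs kept between 0.150 and 0.208 in all 9 bins.

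**Figure D4:**
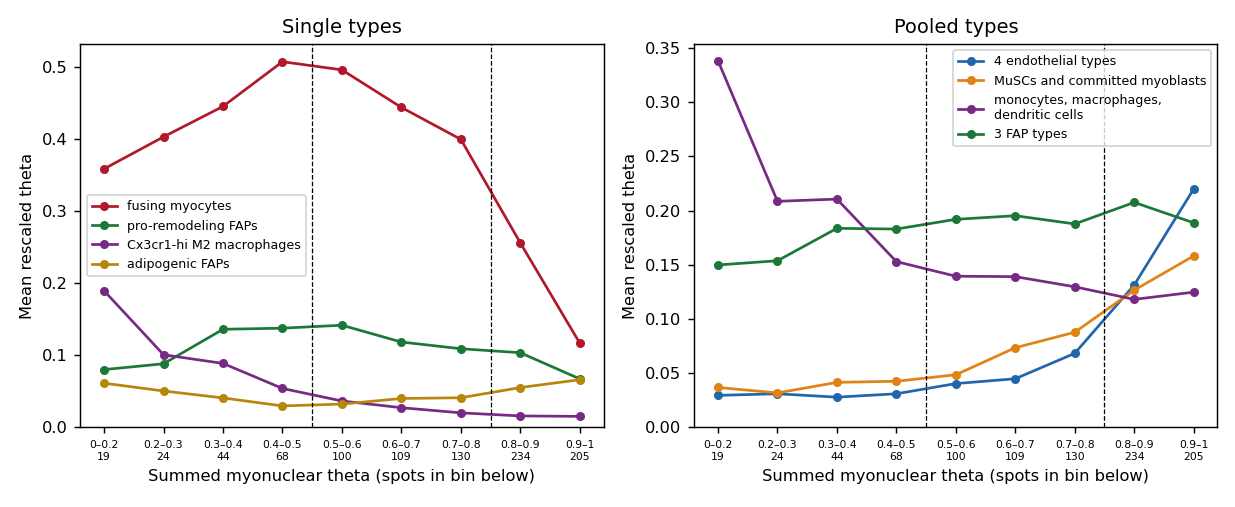
Mean rescaled theta of single types (left) and pooled types (right) in 9 bins of summed myonuclear theta at 5 dpi, with the number of spots under each bin and dashed lines at 0.5 and 0.8. Cx3cr1-hi M2 macrophages are highest in the lowest bin (0.189), fusing myocytes peak at 0.507 just under the limit of 0.5, and endothelial types are highest above 0.9 (0.220).

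Among themselves, the regenerating spots were mostly led by the same type. Fusing myocytes had the highest theta outside the myonuclei in 142 of 155 spots (91.6%, 86.1 to 95.5), against 221 of 439 myofiber-rich spots (50.3%, 45.6 to 55.1). The second type was pro-remodeling FAPs in 78 regenerating spots (50.3%) and Cx3cr1-hi M2 macrophages in 35 (22.6%). In the myofiber-rich spots that fusing myocytes did not lead, pro-remodeling FAPs led 39, capillary endothelial cells 30 and adipogenic FAPs 22.

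The 13 regenerating spots with another leader were varied. Smooth muscle cells led 4, and neural cells, Cx3cr1-hi M2 macrophages and dendritic cells led 2 each. Pro-remodeling FAPs, adipogenic FAPs and tenocytes led 1 each. The 4 smooth muscle spots were shallow, at 4085 to 7880 UMIs. Both macrophage-led spots had very little myonuclear RNA, with summed theta of 0.149 and 0.0848, and the spot most led by dendritic cells, at 0.425, had 0.123 together with the highest ribosomal protein value of the class, 22.2%. As a set the 13 spots had a median of 7.37% mitochondrial and 12.4% ribosomal protein UMIs, against 8.69% and 13.4% in the 142 others.

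The 2 larger FAP types varied in opposite ways over the regenerating spots, although many spots held both. Both were present in 70 of the 155 spots, pro-remodeling FAPs alone in 73, adipogenic FAPs alone in 12 and neither in 0. Pro-remodeling FAPs exceeded adipogenic FAPs in 117 spots and were the lower in the other 38. Depth was alike, with medians of 14698 and 14105 UMIs, but the median summed myonuclear theta was 0.394 and 0.313. The part of summed theta in the differences that follow was not tested. In the adipogenic spots fusing myocytes averaged 0.348 against 0.490 in the others, and tenocytes 0.0617 against 0.0230.

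Spearman's rho between both FAP types was -0.74 over the 155 spots, -0.71 on raw theta, -0.72 with UMIs held fixed by partial rank correlation, and -0.65 in the 29 spots with 5000 to 10000 UMIs. Over the 439 myofiber-rich spots it was -0.16. It was the most negative of 91 pairs among 14 types that were examined. Both values come from the same deconvolution. In the other sections, low-myonuclear spots were chosen by the same limit of 0.5 on the same deconvolution, so their values are no independent check. There rho was -0.67 over 233 spots at 7 dpi and 0.24 over 230 spots at 2 dpi, or -0.51 and 0.25 with UMIs held fixed. At 7 dpi the 42 spots with more adipogenic than pro-remodeling FAPs were shallow, with a median of 4397.5 UMIs against 17761 in the 191 others.

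Other pairs were weaker and shared the depth of the spot. Fusing myocytes had a rho of 0.40 with pro-remodeling FAPs, -0.50 with adipogenic FAPs and -0.54 with committed myoblasts, and these became 0.35, -0.44 and -0.46 with UMIs held fixed. Activated MuSCs had 0.63 with committed myoblasts and 0.65 with quiescent MuSCs, or 0.47 and 0.40 with UMIs held fixed. Quiescent MuSCs were present in only 12 of the 155 spots, so the pair with them rests largely on very small estimates. The lowest theta of a regenerating spot had a rho of -0.86 with UMIs. All of the correlations between types share the constraint that the rescaled types of a spot sum to 1.

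Depth also moved with single types inside the class. Cx3cr1-hi M2 macrophages averaged 0.0334, 0.0449, 0.0974 and 0.124 in regenerating spots with under 5000, 5000 to 10000, 10000 to 20000 and at least 20000 UMIs, and their rho with UMIs was 0.55. In the myofiber-rich spots their rho with UMIs was -0.60, but they reached a theta of 0.01 in only 1 of 439 spots. The lowest theta of a myofiber-rich spot had a rho of -0.72 with UMIs. The value of -0.60 thus describes very small estimates. The median summed myonuclear theta of the 4 depth classes was 0.430, 0.440, 0.358 and 0.328, and rho between UMIs and summed theta was -0.31. The macrophage share had a rho of 0.48 with UMIs when summed theta was held fixed, and of -0.44 with summed theta when UMIs were held fixed, so it moved with both.

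**Figure D5:**
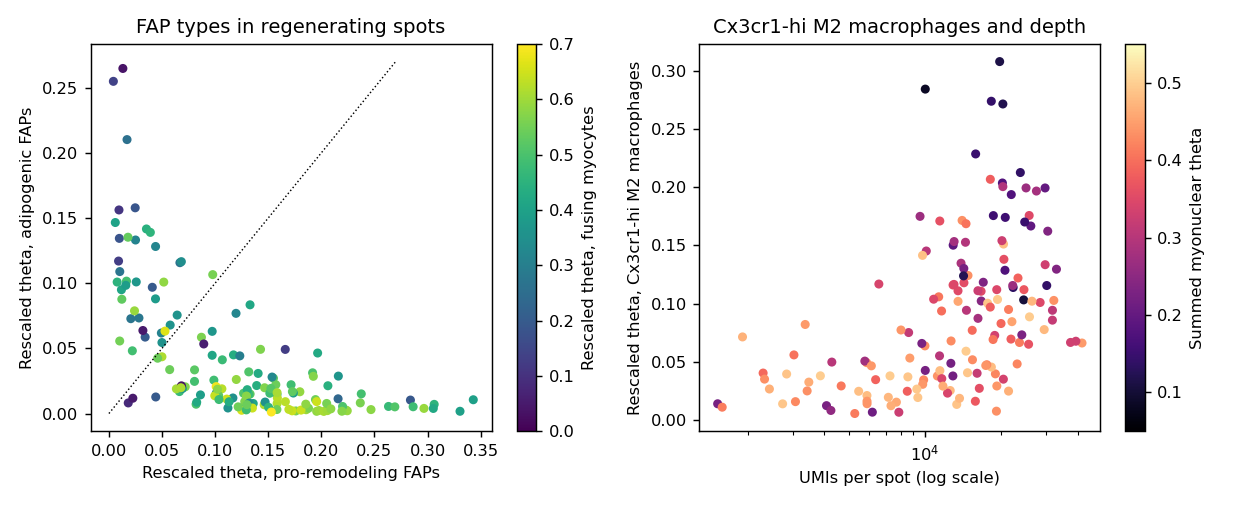
Each point is 1 of the 155 regenerating spots at 5 dpi. Left, rescaled theta of adipogenic against pro-remodeling FAPs, coloured by fusing myocytes, with a dotted line of equal values and 38 spots above it; right, rescaled theta of Cx3cr1-hi M2 macrophages against UMIs on a log axis, coloured by summed myonuclear theta, with values up to 0.308 in deep spots of low myonuclear theta.

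The same limits were applied to the other sections for values side by side, with 1 section per time point and no test between them. They gave 230 low-myonuclear and 385 myofiber-rich of 859 spots at 2 dpi, and 233 and 325 of 966 spots at 7 dpi. Mitochondrial medians were 11.9% and 35.5% at 2 dpi and 9.96% and 28.6% at 7 dpi, and ribosomal protein medians 9.08% and 4.02%, and 11.1% and 5.12%. The order of both measures was that of 5 dpi. Low-myonuclear spots were led by patrolling monocytes in 178 of 230 spots at 2 dpi, while fusing myocytes led 14 there, 142 of 155 at 5 dpi and 181 of 233 in the 7 dpi section. The rescaled ratio of Cx3cr1-hi M2 macrophages was 5.59 at 5 dpi, beside 0.95 and 3.73 in the earlier and the later section. Fusing myocytes had 2.38 beside 1.02 and 2.10. Within 5000 to 10000 UMIs the order over sections changed for the macrophages, with 2.39 at 5 dpi beside 0.704 and 3.08, and fusing myocytes had 2.61 beside 1.43 and 1.48.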

How the data were processed

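The authors prepared Visium libraries from notexin-injured tibialis anterior and aligned them to the mouse genome (mm10). The submitters' processing notes name Space Ranger 1.0, Cell Ranger and Seurat 3.2.1. The deposited UMI and gene counts per spot are not normalized. The deposited percent values give mitochondrial, ribosomal protein and hemoglobin genes in percent of UMIs, and each gave whole UMIs in 100% of spots (tolerance 1e-06). The deposited theta values are fractions that the authors estimated with BayesPrism, with mitochondrial and ribosomal protein genes left out of the reference. They sum to 1 over 27 types, more than the reference in the methods holds. Image alignments carry no barcodes and were not used, so spot positions entered no value, and the gene matrix was not analysed here.

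The groups of sections came from the treatment labels. Depth at 5 dpi is given in the report. Values were computed in Python 3.11.15 with pandas 2.3.3, numpy 2.4.6 and scipy 1.17.1, and the scripts were tested on simulated data. No spot was removed. Rescaled theta is theta divided by its sum over the 25 types other than type IIb and type IIx myonuclei. Ratios are of means over spots, regenerating over myofiber-rich, and percentages are compared by medians. Spots are not replicates, so no test and no standard error was made. Types were named with values where the rescaled mean reached 0.04 in either class or the ratio was at least 2 or at most 0.5, and the others are given briefly. The 38 and 117 spots ordered by FAP type, the correlations in other sections, the count of spots holding both FAP types and the correlations with UMIs or summed theta held fixed were chosen after their values were seen. The limits, types and groups were chosen with earlier results of these data known. Alternatives were a window of 5000 to 10000 UMIs, a minimum of 3000 UMIs, other limits, another summary over spots, weighting by UMIs, theta under 0.01 set to 0, a minimum theta of 0.02 or 0.05 for presence, and raw theta. A ratio was taken as unmoved within a factor of 1.25, a percentage within 2 points and a count within 1.5 times.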

Additional observations from a re-analysis of the deposited data

Results flagged for a closer look

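At 7 dpi the ratio of rescaled theta, low-myonuclear over myofiber-rich spots, was 2.64 for neural cells, against 0.401 at 5 dpi. Within 5000 to 10000 UMIs the ratios were 0.329 at 7 dpi and 0.127 at 5 dpi, both under 1. For pro-remodeling FAPs it was 0.584 at 2 dpi against 1.41 at 5 dpi, and within 5000 to 10000 UMIs 0.871 and 1.65. Each section pair was picked out because the order of the classes was opposite, but opposite orders were not limited to these types. M1 macrophages had 1.86 at 2 dpi against 0.731 at 5 dpi, and inflammatory monocytes 1.34 against 0.706. Tenocytes had 1.36 at 7 dpi against 0.833 at 5 dpi, but 0.817 and 0.574 within 5000 to 10000 UMIs. The differences were not tested, since each time point had 1 section.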

How the results depend on the processing

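Within 5000 to 10000 UMIs the rescaled ratio was 2.39 for Cx3cr1-hi M2 macrophages, 1.42 for smooth muscle cells (opposite order) and 1.04 for the type IIx part (opposite order), and the mitochondrial difference was -20.4 points. Limits of 0.4 and 0.9 (87 and 205 spots) gave 7.42 for Cx3cr1-hi M2 macrophages, 3.54 for fusing myocytes and a ribosomal protein difference of 10.3 points. Limits of 0.6 and 0.7 (255 and 569 spots) gave 4.05 for Cx3cr1-hi M2 macrophages, -21.0 mitochondrial points and 0.404 for the IIx part. Medians gave 3.44 for fusing myocytes, 2.19 for pro-remodeling FAPs and 0.126 for the IIx part, and UMI weights 8.02 for Cx3cr1-hi M2 macrophages. With theta under 0.01 set to 0, 14 types were higher, activated MuSCs (1.47), inflammatory monocytes (9.26), M1 macrophages (25.1) and T cells (8.33) turned, as did dendritic cells (2.14), Cx3cr1-hi M2 macrophages had 287.9 against 1 myofiber-rich spot, fusing myocytes 1.15 and pro-remodeling FAPs 1.13. B cells, NK cells and neutrophils then had no myofiber-rich value and no ratio. On raw theta 24 types were higher, which the class limits favour. Fusing myocytes had 11.8, Cx3cr1-hi M2 macrophages 35.7, pro-remodeling FAPs 7.35, activated MuSCs 2.56, adipogenic FAPs 4.32, artery 1.20, B cells 3.91, committed myoblasts 1.67, inflammatory monocytes 4.59, M1 macrophages 4.31, neural cells 2.42, neutrophils 2.16, quiescent MuSCs 1.07, smooth muscle cells 2.99, stem endothelial cells 1.03, stem FAPs 1.39, T cells 3.91 and vein 1.77. Of 25 ratios, 24 were unmoved with at least 3000 UMIs and 21 with spots led by fusing myocytes only, a choice made after seeing the data. At a minimum theta of 0.02 and 0.05, Cx3cr1-hi M2 macrophages were present in 74.8% and 47.1% of regenerating and 0% of myofiber-rich spots. Fusing myocytes were present in 100% and 96.8% of regenerating and in 42.1% and 15.3% of myofiber-rich spots. Pro-remodeling FAPs were present in 85.8% and 69.7% of regenerating and in 14.6% and 1.59% of myofiber-rich spots. The cause of these shifts was not tested.

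With 1 section, no value holds the spread between animals, and leaving out a replicate was not possible. The low theta of myofiber-rich spots limits every rescaled ratio, most for types present in under 2% of them. Spots at like depth were few, with 29 regenerating and 112 myofiber-rich.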
